A study of Mus musculus with 3 samples.

Results

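The complementarity-determining region 3 (CDR3) of the T cell receptor beta chain was called long here when its amino acid sequence held 17 residues or more, counted from the conserved cysteine to the closing phenylalanine. Members were all clonotypes with a TRBV and a TRBJ gene and an in-frame CDR3 without a stop codon that met this length. The CD4 library held 1173 of them among 41301 in-frame clonotypes, the CD8 library 2440 among 77240 and the DN library 1825 among 38188, which came to 5438 of 156729 entries and 4955 of 143731 different sequences. The 3 libraries were made from CD4, CD8 and double-negative (DN, neither CD4 nor CD8) T cells sorted by flow cytometry from the spleen of 1 MRL.lpr mouse at 16 weeks of age, with mRNA taken from equal numbers of cells per subset, and the gates of these sorts are not given in the sources used here. MRL.lpr is a lupus-prone strain that carries the lpr mutation of the death receptor Fas and accumulates DN T cells, and all 3 subsets shared this genotype, so no Fas-sufficient control entered any comparison. The study asked from which T cells the DN subset arises, and the receptors of the 3 subsets are set side by side here by the length of the CDR3.

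During T cell development a V, a D and a J gene of the beta locus are joined, bases are trimmed from their ends, and non-templated (N) bases are added at the joints. The CDR3 spans these joints and forms the loop at the centre of the receptor that touches the peptide held by an MHC molecule. The beta locus has the D genes TRBD1 and TRBD2. TRBD2 and the TRBJ2 cluster lie downstream of the TRBJ1 cluster, so TRBD1 can join either J cluster whereas TRBD2 joins TRBJ2.

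The in-frame clonotypes held 126738 reads in the CD4 library, 145225 in CD8 and 185135 in DN, and 3 reads corresponded to 0.00237%, 0.00207% and 0.00162% of them. Each subset had 1 library, so no difference had a replicate check. Every test and interval compares these libraries and covers counting error only, since no molecular identifiers are named and PCR copies of 1 molecule count as separate reads. The RNA came from sorted T cells and only receptor transcripts were tabulated, so the sort could not be checked with CD4, CD8 or other marker genes here.

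The sequences on which the results turn are the 3 largest long CDR3s of each library by reads and the longest ones with at least 10 reads. The longest of CD4 is given further below and is not in this list. They are given 5′ to 3′ from the codon of the conserved cysteine, and the capitals mark the bases of the central loop, which leaves out 4 residues at each end.
TRBV13-1 with TRBJ2-4, 17 residues, largest in DN and in CD8: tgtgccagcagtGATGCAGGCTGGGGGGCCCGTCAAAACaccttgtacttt
TRBV17 with TRBJ2-1, 18 residues, next in DN and in CD8: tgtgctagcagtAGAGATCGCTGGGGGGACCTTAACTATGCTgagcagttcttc
TRBV17 with TRBJ2-2, 17 residues, rank 3 among long CDR3s of DN: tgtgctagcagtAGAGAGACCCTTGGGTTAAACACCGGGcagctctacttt
TRBV13-2 with TRBJ2-4, 17 residues, rank 3 among long CDR3s of CD8: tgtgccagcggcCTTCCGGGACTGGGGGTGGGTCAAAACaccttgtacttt
TRBV5 with TRBJ2-1, 17 residues, largest in CD4: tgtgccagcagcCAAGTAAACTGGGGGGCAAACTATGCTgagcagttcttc
TRBV17 with TRBJ2-3, 17 residues, next in CD4: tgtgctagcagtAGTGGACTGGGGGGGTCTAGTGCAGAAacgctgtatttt
TRBV3 with TRBJ2-5, 18 residues, rank 3 among long CDR3s of CD4: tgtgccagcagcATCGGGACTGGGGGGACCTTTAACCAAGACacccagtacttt
TRBV5 with TRBJ2-5, 20 residues, longest with at least 10 reads in DN and in CD8: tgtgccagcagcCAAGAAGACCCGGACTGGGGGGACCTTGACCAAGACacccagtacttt
All 8 listed here used a TRBJ2 gene, whereas the longest of CD4 used TRBJ1-1 and had TRBD1 named. In 7 of the 8 listed the D gene was named as TRBD2, and these 7 loops hold its letters CTGGGGG. No D gene was named for the clonotype of TRBV17 with TRBJ2-2.

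Long CDR3s were more frequent in the DN library than in either of the others. They made up 4.78% of in-frame clonotypes in DN (95% Wilson interval 4.57 to 4.998%), 3.16% in CD8 (3.04 to 3.28%) and 2.84% in CD4 (2.68 to 3.005%). DN exceeded CD8 by a ratio of 1.51 (95% interval 1.43 to 1.61, two-sided Fisher's exact test on clonotypes with Benjamini-Hochberg adjustment over 3 pairs of libraries, adjusted p = 3.93e-41) and CD4 by a ratio of 1.68 (1.57 to 1.81, adjusted p = 3.26e-46 by the same Fisher's exact test). The CD4 share was 0.899 times that in CD8 (0.839 to 0.963, adjusted p = 0.00229, Fisher's exact test), and this small difference was no longer past the threshold when clonotypes with 1 read were left out (0.934, adjusted p = 0.277, Fisher's exact test).

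By reads, long CDR3s held 9330 reads or 5.04% of the DN library (4.94 to 5.14%), 4141 reads or 2.85% of CD8 (2.77 to 2.94%) and 3932 reads or 3.10% of CD4 (3.01 to 3.20%). The ratio of read shares was 1.77 for DN to CD8, 1.62 for DN to CD4 and 1.09 for CD4 to CD8. DN led on both scales. The order of CD4 and CD8 by reads was not stable, since their ratio was 0.970 (0.876 to 1.07) with 18 residues or more, 0.983 (0.931 to 1.04) among clonotypes found in 1 library and 1.01 (0.961 to 1.05) at the same mix of V genes. A single clonotype held 1374 of the long reads in DN, and without the largest long clonotype of each library the read shares were 4.33% in DN, 2.70% in CD8 and 2.88% in CD4.

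Most members lay just above the length limit. CDR3s of 17 residues made up 80.9%, 81.0% and 80.1% of the long ones in CD4, CD8 and DN, and those of 18 residues 15.9%, 15.4% and 16.1%. CDR3s of 16 residues, just outside the limit, made up 9.20% of in-frame clonotypes in the CD4 library, 9.999% in CD8 and 13.2% in DN, against 2.30%, 2.56% and 3.83% for those of 17. The ratio of DN to the other libraries was below 1 from 11 to 14 residues and above 1 from 15 to 20, so it did not change sides at the limit. Compared with CD8, the share of DN clonotypes was 0.731 times as large at 11 residues, 0.937 times at 14, 1.20 times at 15, 1.32 times at 16, 1.49 times at 17 and 1.58 times at 18 (95% interval 1.35 to 1.84). Compared with CD4, the corresponding ratio was 0.949 at 14 residues, 1.14 at 15, 1.67 at 17 and 1.70 at 18 (1.42 to 2.05). The mean CDR3 length over all in-frame clonotypes was 14.2 residues in DN and 13.9 in both CD4 and CD8.

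**Figure D1:**
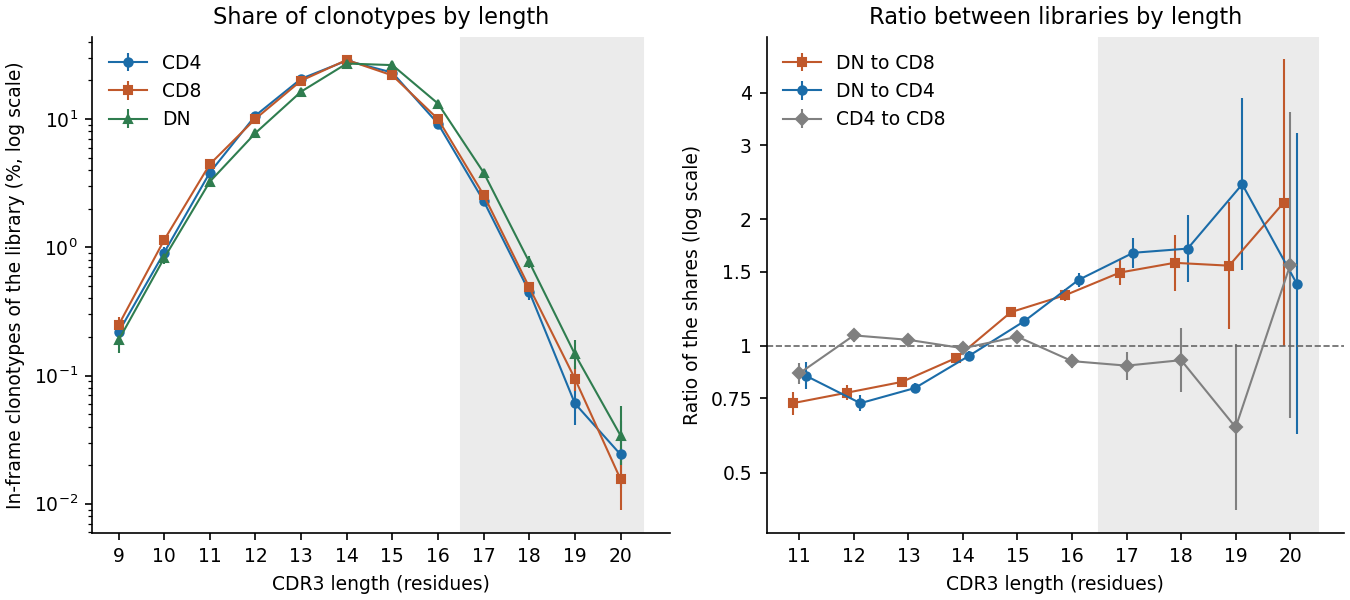
Share of in-frame clonotypes at each CDR3 length in residues (left, percent on a log scale) and the ratio of these shares between libraries (right, log scale), with 95% intervals as bars and lengths of 17 residues or more shaded. The DN curve lies below the other curves from 9 to 14 residues and above them from 15 to 20, and the ratios of DN to CD8 and to CD4 at 17 residues are 1.49 and 1.67.

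Only 7 members had more than 20 residues, 3 in CD4 and 2 in each of CD8 and DN. In 4 of these 7, and in 9 long clonotypes in all, the CDR3 held 9 letters of the template-switching primer of the library kit, each with 1 read. Without clonotypes of over 20 residues or with these letters, the ratios of clonotype shares were still 1.51 for DN to CD8 and 1.68 for DN to CD4. The longest member with at least 10 reads was a CDR3 of 23 residues with TRBV13-3 and TRBJ1-1, which counted 19 reads in the CD4 library, 2 in CD8 and 0 in DN, where 0 reads allow up to 0.00162%. Its last 14 bases, in capitals, also stood at bases 31 to 44, with 11 bases between the copies.
TRBV13-3 with TRBJ1-1, 23 residues: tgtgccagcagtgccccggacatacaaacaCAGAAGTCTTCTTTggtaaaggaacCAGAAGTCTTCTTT
Whether this repeat was present in the cells or arose in the library was not tested.

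The V genes of long CDR3s differed from those of the other in-frame CDR3s, with most genes on the same side in all 3 libraries. Of 16 V genes with at least 100 in-frame clonotypes in every library, 3 (18.8%) had a higher share among long than among other CDR3s, with the 95% interval above 1 in all 3 libraries, and 9 (56.2%) had a lower share by the same rule. The 3 were TRBV2, TRBV5 and TRBV1, formerly Vβ4, Vβ1 and Vβ2. TRBV2 made up 9.46% of long and 4.09% of other clonotypes in CD4, 3.32% and 0.9198% in CD8, and 3.84% and 1.33% in DN. The ratios were 2.31 (1.93 to 2.78), 3.61 (2.88 to 4.53) and 2.88 (2.25 to 3.69), the highest of any V gene compared in each library.

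Among these 3 genes, TRBV1 and TRBV5 supplied more members than TRBV2. TRBV1 gave 586 of 2440 long clonotypes in CD8 (24.02%), 420 of 1825 in DN (23.0%) and 128 of 1173 in CD4 (10.9%), and the ratios of long to other were 2.16, 2.02 and 1.66. TRBV5 gave 282 long clonotypes in the CD4 library (24.04%), 252 in CD8 (10.3%) and 178 in DN (9.75%), with ratios of 2.26, 2.02 and 1.43. The leading V gene of long CDR3s was therefore TRBV5 in CD4 and TRBV1 in CD8 and DN.

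By the median over the 3 libraries, the lowest ratios were those of TRBV20, TRBV30, TRBV26 and TRBV29, formerly Vβ15, Vβ18, Vβ3 and Vβ7. TRBV20 made up 10.04% of other CDR3s in CD4 but only 17 of the 1173 long ones, a ratio of 0.144 (0.08996 to 0.232), and its ratio was 0.107 in CD8 and 0.146 in DN. TRBV30 had 2 long clonotypes in the CD4 library, 1 in CD8 and 2 in DN, with ratios of 0.224 (0.0557 to 0.897), 0.0772 (0.0109 to 0.549) and 0.230 (0.0572 to 0.928). TRBV26 and TRBV29 had ratios of 0.335 to 0.640 and 0.404 to 0.616 over the libraries.

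Among the genes of the former Vβ8 family, which the study examined by flow cytometry, TRBV13-1 (Vβ8.3) had ratios of 0.802 to 0.869 and TRBV13-3 (Vβ8.1) of 0.584 to 0.840, both below 1 in every library. TRBV13-2 (Vβ8.2) had ratios of 1.16 (1.01 to 1.33) in CD4, 1.07 (0.952 to 1.20) in CD8 and 1.07 (0.9499 to 1.20) in DN, with intervals that include 1 in CD8 and DN. TRBV17 was the V gene whose ratio turned between libraries, at 1.42 (1.09 to 1.85) in CD4 and 0.836 (0.713 to 0.981) in DN. It was chosen for mention after its values were seen.

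**Figure D2:**
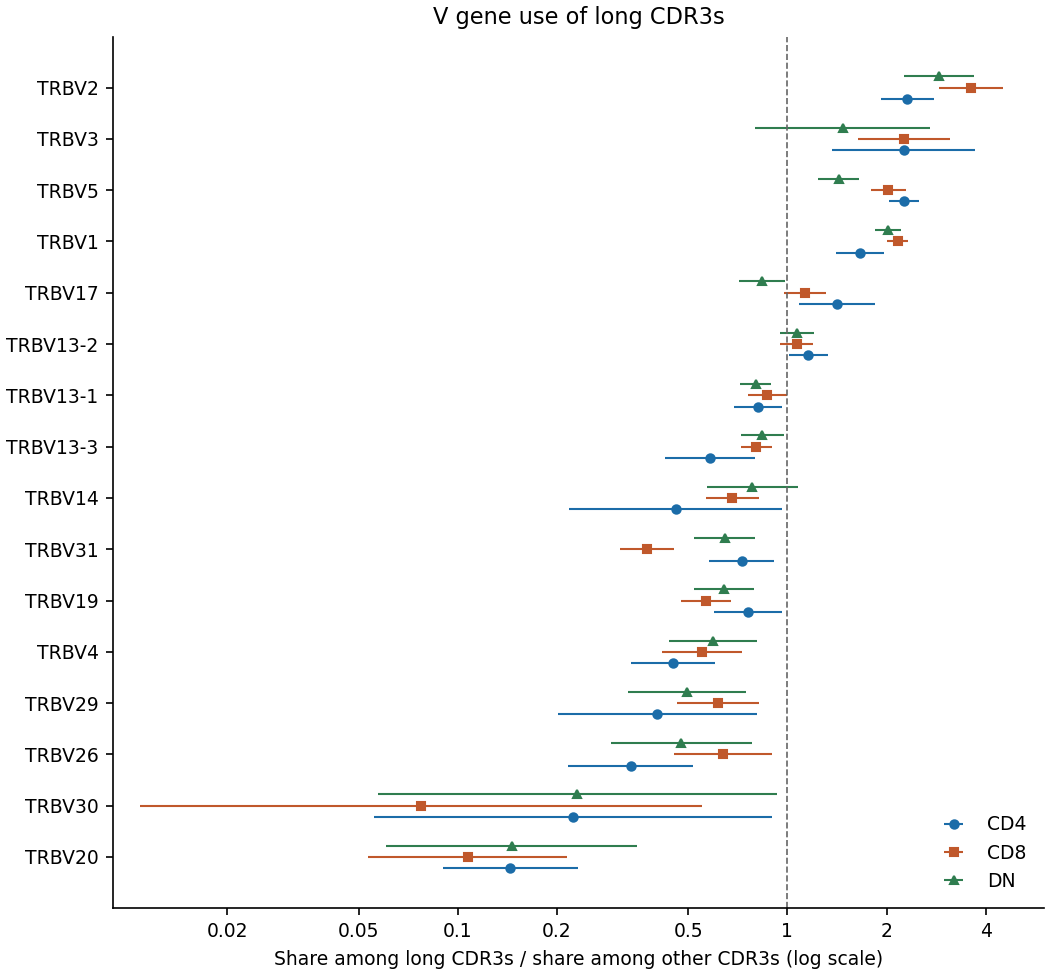
Ratio of the share of each V gene among long CDR3s to its share among other in-frame CDR3s (log scale) in the CD4, CD8 and DN libraries, with 95% intervals as bars and the dashed line at 1. TRBV2 is on the right in every library with ratios of 2.31 to 3.61, and TRBV20 and TRBV30 are farthest to the left.

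The higher share of long CDR3s in DN was present within V genes. Within a gene, the share of clonotypes that were long was higher in DN than in CD8 in 16 of 16 V genes, with the interval of the ratio above 1 in 8 (50%), and higher than in CD4 in 16 of 16, with the interval above 1 in 10 (62.5%). For TRBV1, 9.21% of clonotypes were long in DN, 6.60% in CD8 and 4.64% in CD4. For TRBV2 the shares were 12.6%, 10.5% and 6.33%, and for TRBV5 they were 6.70%, 6.20% and 6.20%, and the interval of the ratio of DN to CD8 included 1 for TRBV2 and TRBV5, as did that of DN to CD4 for TRBV5. With all libraries set to the same mix of V genes, the ratio of DN to CD8 was 1.43 (1.34 to 1.52) and that of DN to CD4 was 1.62 (1.497 to 1.75).

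J genes of the TRBJ2 cluster led among long CDR3s. All 12 J genes passed the minimum, and 5 (41.7%) had a higher and 4 (33.3%) a lower share among long CDR3s in all 3 libraries. The highest ratios were those of TRBJ2-3, TRBJ2-2 and TRBJ2-4, and the lowest those of TRBJ1-2, TRBJ1-1 and TRBJ2-7. The most frequent start of each J gene within the CDR3, as read from the clonotypes themselves and not from a germline reference, is given for these 6 genes, with the codon of the closing phenylalanine in capitals. Such a stretch can reach past the J gene into D or N bases, so its length need not be that of the gene.
TRBJ2-3: ctagtgcagaaacgctgtatTTT
TRBJ2-2: gcaaacaccgggcagctctacTTT
TRBJ2-4: tagtcaaaacaccttgtacTTT
TRBJ2-7: gctcctatgaacagtacTTC
TRBJ1-1: gcaaacacagaagtcttcTTT
TRBJ1-2: gcaaactccgactacaccTTC
These stretches held 23, 24 and 22 bases for the genes with high ratios and 20, 21 and 21 bases for those with low ratios. The order did not follow this length alone, since TRBJ2-1, with 21 bases, had ratios of 1.20 to 1.24, and TRBJ1-5, with 23 bases, had ratios of 0.519 to 0.660.

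TRBJ2-3 made up 17.7% of long and 8.50% of other clonotypes in CD4, 18.6% and 7.88% in CD8, and 18.4% and 7.55% in DN. Its ratios were 2.09 (1.84 to 2.37), 2.35 (2.16 to 2.57) and 2.43 (2.19 to 2.69). TRBJ2-2 had ratios of 2.07 to 2.33 and TRBJ2-4 of 1.80 to 2.05. TRBJ2-7, which was the most used J gene among other CDR3s in all 3 libraries at 17.6%, 21.5% and 24.3%, made up 4.09%, 5.90% and 6.74% of long ones, with ratios of 0.232, 0.275 and 0.277. TRBJ1-1 and TRBJ1-2 had ratios of 0.119 to 0.192 and 0.135 to 0.199. In every library these 3 TRBJ2 genes had the highest ratios, and TRBJ2-7, TRBJ1-1 and TRBJ1-2 had the lowest. Within J genes, the long share was higher in DN than in CD8 in 11 of 12, with the interval above 1 in 8 (66.7%), and higher than in CD4 in 11 of 12, with the interval above 1 in 9 (75%). The exceptions were TRBJ1-1, with 0.596% in DN and 0.6004% in CD8, and TRBJ1-6, with 5.07% in DN and 5.54% in CD4.

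**Figure D3:**
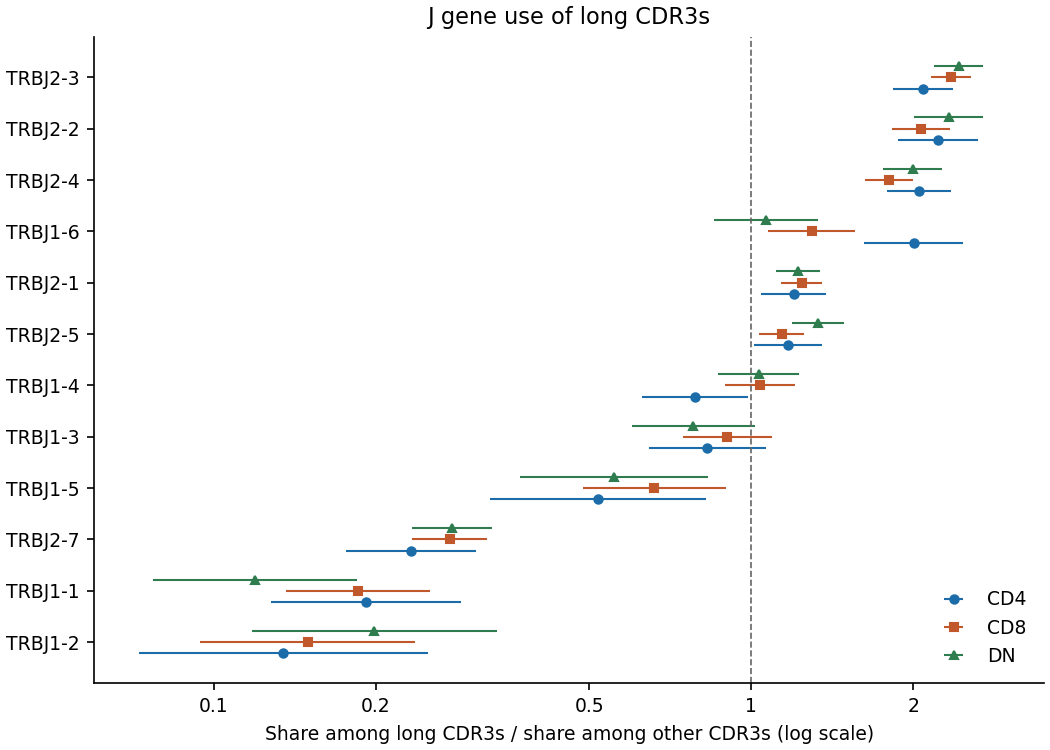
Ratio of the share of each J gene among long CDR3s to its share among other in-frame CDR3s (log scale) in the CD4, CD8 and DN libraries, with 95% intervals as bars and the dashed line at 1. TRBJ2-3, TRBJ2-2 and TRBJ2-4 lie at 1.80 to 2.43 in every library, and TRBJ2-7, TRBJ1-1 and TRBJ1-2 lie at 0.119 to 0.277.

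Where in the CDR3 the added bases sat was measured by matching each CDR3 from its left end to the most frequent end of its V gene and from its right end to the most frequent start of its J gene. What remained in the middle holds the D gene and N bases. Long CDR3s had a mean of 51.9 bases in CD4, 51.7 in CD8 and 51.8 in DN, against 41.5, 41.4 and 42.2 in the others. The middle was 16.6, 16.2 and 16.4 bases long in long CDR3s and 10.1, 9.86 and 10.7 in the others, and accounted for 62.7%, 61.2% and 60.0% of the difference in length. The V part was longer by 1.58, 1.58 and 1.47 bases and the J part by 2.31, 2.43 and 2.36 bases, so every stretch of the junction was longer, and the middle by the most bases. A longer total followed from choosing members by length, so only its division among the parts was measured.

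Between libraries, the stretches of long CDR3s differed by at most 0.416 bases, for the middle of CD4 against CD8 (0.00917 to 0.824), and the CD4 mean includes a clonotype of 58 residues with 1 read and primer letters. The middle was longer in DN than in CD8 by 0.248 bases, with an interval of -0.0219 to 0.517 that includes 0, and differed from CD4 by -0.169 bases (-0.582 to 0.245). Among the other CDR3s, the middle was 0.814 bases (0.760 to 0.869) longer in DN than in CD8 and 0.622 bases (0.561 to 0.684) longer than in CD4. Long CDR3s were chosen by total length, and 80.1 to 81.0% of them had 17 residues. Their total could thus differ little between libraries, and these gaps cannot be set against those of the other CDR3s.

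TRBD2 was the D gene of most long CDR3s. It was named for 60.7% of long clonotypes in CD4 (95% Wilson interval 57.9 to 63.5%), 63.7% in CD8 (61.8 to 65.6%) and 68.4% in DN (66.3 to 70.5%), and for 27.9%, 31.003% and 38.3% of the others. The ratios of long to other were 2.18 (2.07 to 2.29), 2.06 (1.99 to 2.12) and 1.79 (1.73 to 1.85). TRBD1 was named less often among long CDR3s, with 35.7%, 32.6% and 26.96% against 44.97%, 42.01% and 37.5%. No D gene was named for 3.58%, 3.69% and 4.60% of long and 27.2%, 26.98% and 24.3% of other CDR3s. Among clonotypes with a named D gene only, the TRBD2 ratio was 1.65, 1.56 and 1.42.

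TRBJ2 genes were carried by 77.3% of long clonotypes in the CD4 library, 80.4% in CD8 and 82.7% in DN, against 63.0%, 68.9% and 70.1% of the others. Among TRBJ2 clonotypes alone, TRBD2 was named for 77.1%, 77.9% and 81.7% of long and 41.0%, 42.7% and 51.9% of other CDR3s, so the difference was also present within that J cluster. By the order of the genes, TRBD2 should not join TRBJ1. Among TRBJ1 clonotypes it was still named for 4.89%, 5.44% and 5.06% of long and 5.46%, 5.07% and 6.40% of other CDR3s. TRBD1 was named there for 89.5%, 86.6% and 85.8% of long and 60.7%, 59.2% and 59.4% of other CDR3s. Within the TRBJ1 cluster the TRBD1 share was thus higher among long CDR3s.

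**Figure D4:**
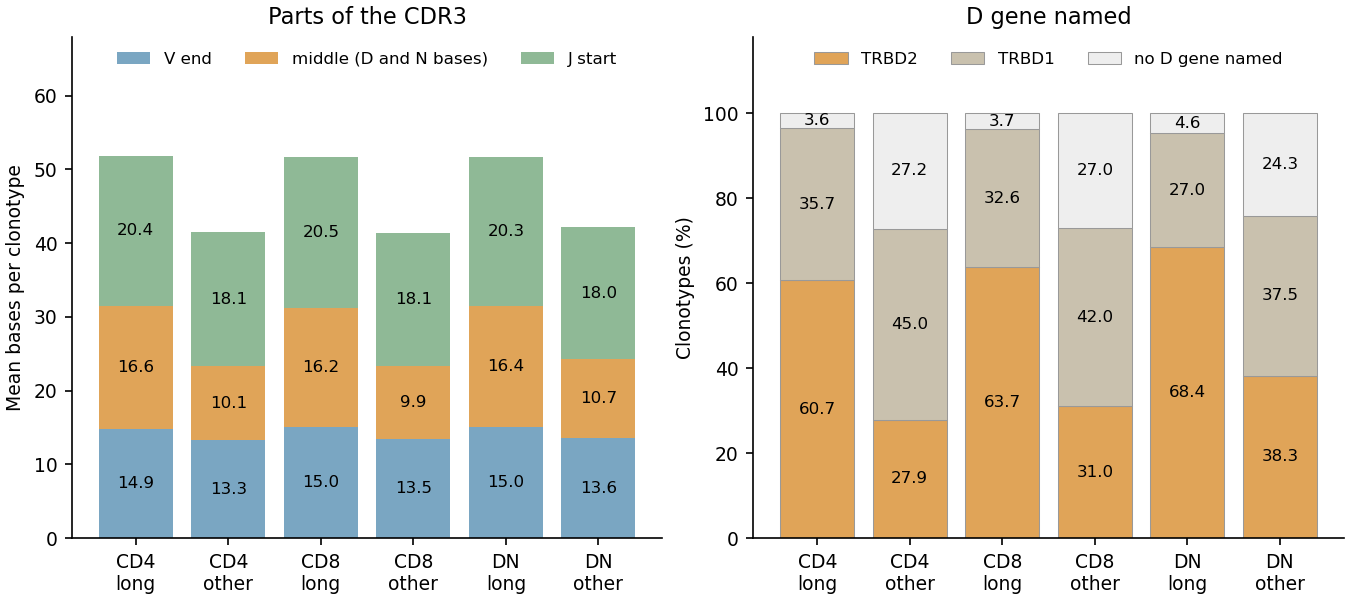
Mean number of bases per clonotype in the V end, the middle and the J start of long and other CDR3s in each library (left), and percent of clonotypes by the D gene named (right). The middle holds 16.2 to 16.6 bases in long and 9.86 to 10.7 bases in other CDR3s, and the TRBD2 share is 60.7 to 68.4% among long and 27.9 to 38.3% among other CDR3s.

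The D genes could also be read directly from the letters. The 7 letters GACTGGG, which occur in TRBD2 and not in TRBD1, were present on the coding strand of 38.02% of long CDR3s in CD4, 40.1% in CD8 and 46.4% in DN, against 12.2%, 14.9% and 19.99% of the others. The 7 letters GACAGGG, which occur in TRBD1 and not in TRBD2, were present in 19.9%, 18.5% and 14.03% of long and 14.7%, 14.9% and 12.5% of other CDR3s. A longer sequence has more room for any 7 letters, and the excess among long CDR3s was larger for the TRBD2 letters than for the TRBD1 letters in each library.

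A CDR3 with the TRBD1 letters followed by the TRBD2 letters was found in 2 long clonotypes in the CD4 library, 9 in CD8 and 6 in DN (0.171%, 0.369% and 0.329% of long clonotypes), and in 0 of 40128, 3 of 74800 and 0 of 36363 of the others, where 0 clonotypes allow a share of up to 0.00748% in CD4 and 0.00825% in DN. The reverse order was found in 0 long clonotypes of any library and in 1 other clonotype, in DN. Both sets of letters need more room than 1 set. The middle held a mean of 9.86 to 10.7 bases in other CDR3s and 16.2 to 16.6 in long ones. The part of room in this contrast was not tested. Of the clonotypes with TRBD1 letters first, 1 had the most reads, 9 in DN and 0 in the other libraries. It was chosen for mention after its values were seen and has both sets of letters in capitals.
TRBV14 with TRBJ2-2, 19 residues: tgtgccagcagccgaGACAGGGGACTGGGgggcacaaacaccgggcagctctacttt

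A D gene can be read in any of 3 frames, and the frame sets the residues it gives. Of long CDR3s with the TRBD2 letters, 55.96% in DN (52.6 to 59.3%) were read as aspartate-tryptophan, against 36.996% in CD4 (32.6 to 41.6%) and 38.2% in CD8 (35.2 to 41.3%). The frame that gives leucine-glycine was read in 30.8%, 36.3% and 33.03% in DN, CD4 and CD8, and the frame that gives threonine-glycine in 13.2%, 26.7% and 28.7%. The intervals of DN and the other libraries do not overlap for aspartate-tryptophan and threonine-glycine. Among other CDR3s, DN also had the highest share of aspartate-tryptophan, with 64.7% against 39.6% in CD4 and 46.1% in CD8, and the lowest share of threonine-glycine, with 15.5% against 31.8% and 26.1%.

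Tryptophan in the central loop was more frequent in DN. At least 1 tryptophan was present in 46.4% of long clonotypes in DN (44.1 to 48.7%), 28.5% in CD8 (26.7 to 30.3%) and 26.9% in CD4 (24.5 to 29.6%). DN was also highest among other CDR3s, with 26.9% against 15.1% in CD8 and 11.9% in CD4. Where TRBD2 was named, the share among long CDR3s was 59.2% in DN, 39.4% in CD8 and 40.03% in CD4, and where TRBD1 was named it was 15.7%, 8.05% and 5.97%. Tryptophan made up 5.37% of the loop residues of long CDR3s in DN, 2.15 percentage points (1.80 to 2.50) more than in CD8 and 2.33 points (1.92 to 2.73) more than in CD4.

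The central loop, which for a CDR3 of 17 residues holds 9, was also compared for charged residues (aspartate, glutamate, lysine and arginine) and hydrophobic residues (phenylalanine, isoleucine, leucine, methionine, valine, tryptophan and tyrosine). Charged residues made up a mean of 20.98% of the loop in long CDR3s in CD4, 21.03% in CD8 and 23.1% in DN. The differences from the other CDR3s were -1.25 (-2.04 to -0.466), -1.44 (-1.98 to -0.907) and -1.03 (-1.66 to -0.407) percentage points. The size of this difference depended on the limits chosen. With 3 instead of 4 residues left out at each end it was -5.50, -4.88 and -4.59 points, and with 18 residues or more as the limit it was 0.380 (-1.38 to 2.14) in CD4. Against CDR3s of 14 to 16 residues only, the differences were -0.248 in CD4, -0.628 in CD8 and -0.396 in DN, and the interval excluded 0 in CD8 only. Hydrophobic residues made up 14.1%, 15.6% and 17.7% of the loop, and the differences from the others were -0.255 (-0.870 to 0.360), -0.803 (-1.25 to -0.354) and -1.20 (-1.70 to -0.696) points. With 3 instead of 4 residues left out at each end these differences turned to 0.915, 0.672 and 0.348, so no direction can be given for hydrophobic residues.

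Counted by net charge, more long than other loops were negative. The loop carried a net negative charge in 53.8% of long CDR3s in CD4 (50.9 to 56.6%), 62.3% in CD8 (60.4 to 64.2%) and 63.3% in DN (61.1 to 65.5%), against 45.9%, 48.1% and 50.996% of the others. A net positive charge was found in 12.7%, 10.8% and 11.3% of long and 13.3%, 11.9% and 12.7% of other CDR3s. Loops without net charge made up 33.5%, 26.9% and 25.3% of long and 40.9%, 39.995% and 36.3% of other CDR3s. A long loop has more residues, so this share and the percentage of charged residues need not move together.

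Glycine, which runs of G encode, made up 24.3% of the loop of long CDR3s in CD4, 24.2% in CD8 and 22.4% in DN, higher than in the others by 2.84 (2.21 to 3.47), 2.50 (2.08 to 2.92) and 2.06 (1.54 to 2.58) points. Alanine was higher by 1.26, 2.32 and 2.05 points, and threonine differed by -1.68, -1.77 and -1.74 points, with intervals that exclude 0 in all 3 libraries. Against CDR3s of 16 residues only, glycine differed by 0.237 (-0.486 to 0.960), 0.595 (0.109 to 1.08) and 0.671 (0.0837 to 1.26) points, and the intervals for alanine included 0 in all 3 libraries. Between libraries, the long CDR3s of DN had 2.12 points (1.33 to 2.91) more charged and 2.14 points (1.496 to 2.78) more hydrophobic residues than those of CD8, and 2.16 points (1.19 to 3.13) and 3.60 points (2.84 to 4.36) more than those of CD4. CD4 and CD8 differed in charged residues by -0.0436 points (-0.968 to 0.881). DN was also highest among other CDR3s, with 24.2% charged residues against 22.5% in CD8 and 22.2% in CD4. Hydrophobic residues made up 18.9% of the loop of other CDR3s in DN, against 16.4% in CD8 and 14.4% in CD4.

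Clone size, the number of reads per clonotype, differed little between long and other CDR3s. The mean was 3.35 reads for long and 3.06 for other clonotypes in CD4, 1.70 and 1.89 in CD8, and 5.11 and 4.83 in DN, which gave ratios of 1.10, 0.900 and 1.06. The median was 1 read in both classes of every library. Single-read clonotypes made up 63.9% of long and 60.8% of other clonotypes in CD4, 71.8% and 68.1% in CD8, and 55.9% and 55.0% in DN. Without the largest long clonotype of each library the ratios were 1.02, 0.851 and 0.902. At the limit of 17 residues, the ratio above 1 in DN thus rested on 1 clonotype with 14.7% of its long reads. Most of the excess over 1 in CD4 also went with its largest long clonotype, which held 7.35% of the long reads there. With 18 residues or more, which leaves that clonotype out of the long ones, the ratio in DN was 1.20. This value also includes a large clonotype, the one with TRBV17 and TRBJ2-1, which held 392 of the 1518 DN reads at 18 residues. The ratio without it was not computed.

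Long CDR3s took up 6 of the 100 largest in-frame clonotypes in CD4 (95% Wilson interval 2.78 to 12.5%), 2 in CD8 (0.550 to 7.001%) and 4 in DN (1.57 to 9.84%), and these intervals include the shares of long CDR3s over all clonotypes. Clonotypes with at least 10 reads made up 7.78% of long and 7.30% of other clonotypes in DN, 0.943% and 1.19% in CD8, and 4.26% and 4.29% in CD4. The 10 largest long clonotypes held 30.9% of long reads in DN, 32.3% in CD4 and 11.5% in CD8, the lowest of the 3 shares.

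The 2 largest long clonotypes of DN were also the 2 largest long ones of CD8, whereas the 3 largest of CD4 had 8 reads or fewer in the other libraries. The clonotype with TRBV13-1 and TRBJ2-4 had 1374 reads in DN (0.742%, 95% Wilson interval 0.704 to 0.782%), 225 in CD8 (0.155%, 0.136 to 0.177%) and 62 in CD4 (0.0489%, 0.0382 to 0.0627%). It ranked 1 among all in-frame clonotypes of DN and 8 in CD8, and was the only long clonotype among the 10 largest long ones of all 3 libraries. The clonotype with TRBV17 and TRBJ2-1 had 392 reads in DN, 43 in CD8 and 8 in CD4. The one with TRBV17 and TRBJ2-2 had 270, 29 and 5. Each of these had its highest share in DN, a lower one in CD8 and the lowest in CD4. They were named for having the most reads among the long clonotypes of DN, so a lead in DN partly follows from the choice. The CDR3 of 20 residues with TRBV5 and TRBJ2-5 followed the same order with 72 reads in DN, 20 in CD8 and 6 in CD4, and its loop of 12 residues held 6 acidic and 0 basic ones.

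The leading long clonotypes of CD4, chosen by their reads there, were rare elsewhere. The one with TRBV5 and TRBJ2-1 had 289 reads in CD4 (0.228%) and 8 in each of CD8 and DN. The one with TRBV17 and TRBJ2-3 had 213 reads in the CD4 library, 5 in CD8 and 1 in DN. The one with TRBV3 and TRBJ2-5 had 159, 1 and 0. The third long clonotype of CD8, with TRBV13-2 and TRBJ2-4, had 39 reads there, 1 in CD4 and 0 in DN. Of the 10 largest long clonotypes of DN, 10 were found in CD8, at a median of 14.7% of their share in DN (range 7.50 to 27.8%), and 10 in CD4, at a median of 3.81%. Of the 10 largest of CD4, 8 were found in CD8, at a median of 2.06% of their share in CD4, and 7 in DN, at a median of 1.14%. Their values ranged up to 1517% for the clonotype that led DN. Of the 10 largest of CD8, 8 were found in DN, at a median of 415% of their share in CD8, and 9 in CD4, at a median of 20.54%. No such lookup is given for other clonotypes. Among DN clonotypes with at least 10 reads, 86.6% of long and 89.2% of other ones were found in another library. In CD8 these shares were 91.3% and 66.6%, and in CD4 40.0% and 37.7%. Each list of the 10 largest was chosen by reads in its own library, which favours lower shares elsewhere. Carry-over of cells between sorted subsets or of reads between libraries was not tested.

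**Figure D5:**
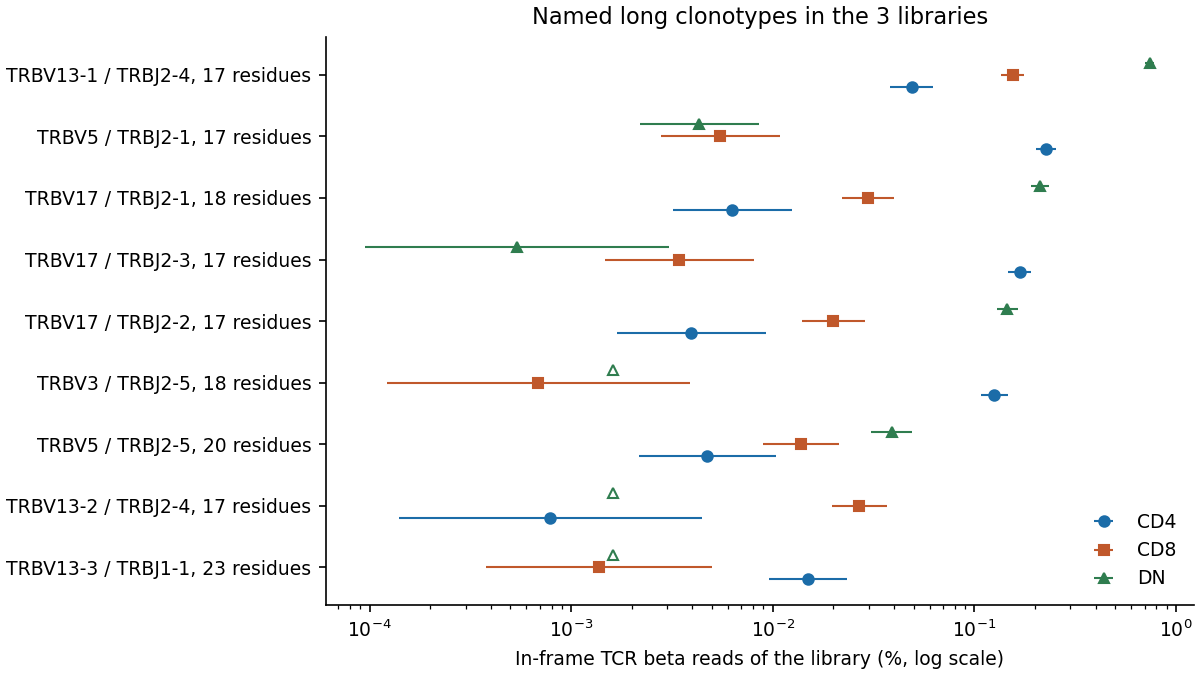
Share of in-frame TCR beta reads (percent, log scale) held by each of the 9 long clonotypes named by rule in the CD4, CD8 and DN libraries, with 95% Wilson intervals as bars and open symbols at the limit of 3 reads where the clonotype had 0 reads. The clonotypes led by DN come next in CD8 and then in CD4, and those led by CD4 lie at or below 0.00551% in the other libraries. Clonotypes named for their reads were chosen on the values shown, so which library leads partly follows from the choice.

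A clonotype counted as shared when its CDR3 matched base for base and its V and J genes matched too. There were 69 such long clonotypes in all 3 libraries, 243 in DN and CD8 only, 74 in DN and CD4 only and 28 in CD4 and CD8 only, while 1002, 2100 and 1439 were found in CD4, CD8 or DN alone. As a share of each list, the long clonotypes common to DN and CD8 were 17.1% of those of DN and 12.8% of those of CD8, those common to DN and CD4 were 7.84% and 12.2%, and those common to CD4 and CD8 were 8.27% and 3.98%. Among other CDR3s, the shares common to DN and CD8 were 19.7% of DN and 9.59% of CD8. Those common to DN and CD4 were 9.47% and 8.58%, and those common to CD4 and CD8 were 9.23% and 4.95%. Long clonotypes that were shared held 71.4% of long reads in DN, 42.8% in CD4 and 30.7% in CD8. For other CDR3s the corresponding shares of reads were 71.2%, 34.0% and 28.1%.

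By this definition, long CDR3s were shared less often than other ones in DN and more often in CD8, but neither direction held under every alternative. Among DN clonotypes, 21.2% of long and 24.2% of other CDR3s were found in another library (ratio 0.873, 95% interval 0.797 to 0.956). Among CD8 clonotypes the shares were 13.9% and 12.1% (1.15, 1.04 to 1.27), and among CD4 clonotypes 14.6% and 13.3% (1.09, 0.951 to 1.26). In DN the ratio was 0.916 (0.799 to 1.05) with at least 2 reads and 1.08 (0.912 to 1.29) with 18 residues or more. In CD8 it was 1.03 (0.928 to 1.13) by nucleotide CDR3 alone and turned to 0.837 (0.760 to 0.923) by amino acid sequence. The ratio depended on the partner library. Long clonotypes of CD4 were found in DN more often than other ones (12.2% against 8.58%, ratio 1.42, 1.21 to 1.66), but in CD8 the ratio was 0.896 (0.739 to 1.09). Long clonotypes of CD8 were found in DN more often (12.8% against 9.59%, ratio 1.33, 1.20 to 1.48) and in CD4 less often (3.98% against 4.95%, ratio 0.803, 0.659 to 0.978). DN was also the library with the highest share of long CDR3s, and the part of this in the ratios was not tested.

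Sharing rose with clone size in both classes. Long clonotypes with at least 10 reads were found in another library in 123 of 142 cases in DN (86.6%), 21 of 23 in CD8 (91.3%) and 20 of 50 in CD4 (40.0%), against 89.2%, 66.6% and 37.7% of other clonotypes. With 1 read the shares were 8.63%, 9.08% and 12.3% for long and 12.4%, 8.39% and 10.5% for other clonotypes. Within classes of equal read count the ratio of long to other was 0.858 in DN, 1.23 in CD8 and 1.09 in CD4.

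Long CDR3s were seldom reached by more than 1 nucleotide sequence. The same amino acid CDR3 with the same V and J gene was encoded by several nucleotide sequences in 2.36% of cases in CD4 (1.62 to 3.41%), 1.16% in CD8 (0.805 to 1.67%) and 2.07% in DN (1.505 to 2.84%), against 5.37%, 7.01% and 5.25% among other CDR3s. When clonotypes were counted by amino acid CDR3, V gene and J gene, the ratio of sharing between long and other was 0.711 in DN, 0.837 in CD8 and 0.778 in CD4, all below 1.

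Rearrangements that cannot give a protein more often had a long CDR3. Of out-of-frame clonotypes with at least 24 bases, 5.09% in CD4 (4.39 to 5.90%), 5.13% in CD8 (4.46 to 5.89%) and 6.36% in DN (5.60 to 7.21%) had 50 bases or more, against 2.84%, 3.16% and 4.78% of in-frame clonotypes with 51 bases or more. Of clonotypes in frame but with a stop codon, 11 of 198, 21 of 268 and 21 of 232 were that long. The share in DN was the highest of the 3 libraries in each class, and among out-of-frame clonotypes its interval overlapped those of CD4 and CD8.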

How the data were processed

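Per the labels, FACS-sorted splenic CD4, CD8 and DN T cells of 1 MRL.lpr mouse gave 1 library each with the Takara SMARTer Mouse TCR kit. The authors assembled reads into clonotypes with MiXCR, whose version and settings are not given in the sources used here. The deposited tables give the count of reads per clonotype, not normalized, and its fraction of the table's reads, which was checked to equal the count over the total and was not used further. Clonotypes other than in-frame TRB ones entered only where named. Members and lists were chosen with earlier results of these data known.

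Shares have 95% Wilson intervals and ratios of shares 95% log (Katz) intervals. Pairs of libraries were compared by two-sided Fisher's exact tests on clonotypes with Benjamini-Hochberg adjustment over 3 pairs, and differences of means have 95% normal intervals over clonotypes. Reads were not tested. V ends and J starts were extended base by base while at least 50% of the clonotypes that shared the stretch so far, and 10% of all clonotypes of the gene, had the same next base. Genes were named by rule: up to 4 V and 3 J genes per side whose median ratio lay farthest from 1 among those with intervals on the same side of 1 in all 3 libraries, plus TRBV5, TRBV13-1, TRBV13-2 and TRBV13-3. Clonotypes were named by rule as the 3 largest long ones per library, the longest with at least 10 reads, and any among the 10 largest long ones of all 3. Older V names are synonyms in the RefSeq gene list (GRCm38.p6), and no coordinates are given because the files name no build. The ratios of clonotype shares and of TRBD2 shares, the loop differences and the sharing ratio of CD4 were first tested on simulated data. So were the reduction to equal depth and the merging of near-identical clonotypes. The other measures, such as read shares and mean reads, were not. Alternatives covered the length limit, read minimum, merging, shared clonotypes, gene mix, depth, largest clonotypes and loop limits, and those on primer letters, the TRBJ2 cluster, V and J pairs, the largest long clonotype and lengths of 14 to 16 residues were chosen after seeing the data. Versions were 3.11.15 of Python, 2.3.3 of pandas, 1.17.1 of SciPy, 2.4.6 of NumPy and 3.10.9 of matplotlib.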

Additional observations from a re-analysis of the deposited data

Results flagged for a closer look

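The ratio of mean reads of long to other clonotypes lay on different sides of 1, at 1.10 in CD4, 0.900 in CD8 and 1.06 in DN. The ratio of the share found in another library did so too, at 1.09 in CD4, 1.15 in CD8 and 0.873 in DN. These differences between libraries were not tested.

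Letters of the template-switching primer were also present in clonotypes outside the in-frame TRB set, which held 0.00972% of the reads in the CD4 table, 0.00927% in CD8 and 0.00669% in DN, above the limit of 3 reads in each. Long CDR3s of 50 bases or more were present among out-of-frame TRB clonotypes as well, in 5.09% of them in CD4, 5.13% in CD8 and 6.36% in DN.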

How the results depend on the processing

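No paired analysis was possible because each subset had 1 library. Of 195 alternative values for 21 results, 149 kept a call, or the lack of one, or moved by less than the counting interval. The ratios of read shares under either way of merging are among the 149 and could not change, since merging kept length and reads. Also among the 149, values without a call changed sign in CD4, where the interval included no difference before and after. The hydrophobic difference turned to 0.620 with 18 residues or more, 0.537 with at least 2 reads and 0.0114 against lengths of 14 to 16, and the sharing ratio turned to 0.995 with 16 or more and 0.954 by nucleotide CDR3 alone. The ratios of DN to CD8 and of DN to CD4 by clonotypes stayed past the threshold under every alternative run, at 1.37 to 1.67 and 1.49 to 1.79, and the TRBD2 ratios did so at 1.42 to 2.50. With 18 residues or more as the limit, the CD4 to CD8 ratio by clonotypes was 0.905 (Fisher's exact test, adjusted p = 0.228) and with at least 2 reads it was 0.934 (adjusted p = 0.277).

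The DN to CD8 ratio by reads was 2.08 with 18 residues or more, 1.56 with 16 or more, 1.96 with at least 2 reads, 1.59 at the pooled V gene mix, 1.62 without the 10 largest clonotypes and 1.60 without the largest long one. The DN to CD4 ratio was 2.15 with 18 or more, 1.48 with 16 or more, 1.85 among clonotypes found in 1 library, 1.51 without the 10 largest and 1.503 without the largest long one. The CD4 to CD8 ratio turned to 0.970 with 18 or more and to 0.983 among clonotypes found in 1 library, and was 1.21 with at least 2 reads and 1.01 at the pooled V gene mix.

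The ratio of mean reads was 0.979 in CD4 and 1.20 in DN with 18 residues or more, 1.20 in CD4 and 1.09 in DN with at least 2 reads, and 1.05, 0.833 and 1.02 in CD4, CD8 and DN after merging by amino acid sequence. Without the largest long clonotype it was 1.02, 0.851 and 0.902, and without the 10 largest it was 0.951 in DN. The sharing ratio was 1.41 in CD4 and 1.08 in DN with 18 or more, 0.916 in DN with at least 2 reads, 1.03 in CD8 by nucleotide CDR3 alone, and 0.778 in CD4 and 0.837 in CD8 by amino acid sequence.

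The difference in charged residues was 0.380 points in CD4 and -0.432 in DN with 18 or more, and -0.248 and -0.396 against lengths of 14 to 16. The difference in hydrophobic residues was -0.202 in CD8 and -1.03 in DN with 18 or more, -0.458 in CD4 with 16 or more, -0.395 in CD8 with at least 2 reads, 0.915, 0.672 and 0.348 in CD4, CD8 and DN with 3 residues left out at each end, and -1.46 in CD4 over the whole CDR3. The causes were not tested. At these depths most clonotypes had 1 read, so sharing and clone size of rare long CDR3s are limited by depth.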
